A study of Mus musculus with 9 samples.

Results

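The respiratory chain was examined through 41 of the 22136 genes measured, namely the 13 protein-coding genes of the mitochondrial genome and 28 nuclear genes for subunits of complexes I to V. The members were listed by symbol, with earlier results of these data known, and all 41 passed the filter on low counts. They were measured in bulk skin tumors grown from YUMMER1.7 cells, a mouse melanoma line whose immunogenicity was raised by ultraviolet irradiation, injected under the skin of immunocompetent C57BL/6J mice. Antibody was given from a tumor volume of 20 to 50 mm3. The 9 libraries fall into 3 groups, each with 3 libraries: tumors given anti-B7-H3, tumors given anti-PD1, and tumors given an IgG isotype control. B7-H3 and PD-1 are immune checkpoint proteins. The combination of both antibodies was not analysed here. RNA was total RNA depleted of ribosomal RNA, and host and tumor cells were not separated. The labels do not state that each library came from its own mouse, so each p-value covers the spread between these libraries alone, which may be technical.

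The respiratory chain passes electrons from NADH and succinate to oxygen through complexes I to IV, and complex V uses the resulting proton gradient to make ATP. Complexes I, III, IV and V are built from subunits of both genomes, whereas complex II, which is also an enzyme of the citrate cycle, is wholly nuclear-encoded. Both strands of mitochondrial DNA are transcribed as long precursors that are cut into separate RNAs, and mt-Nd6 is the only protein gene read from the strand opposite to the other mitochondrial protein genes. Nuclear subunits are transcribed gene by gene, many with promoters that bind NRF1, ETS factors or YY1.

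The libraries differed in content in ways that bear on these genes. Estimated reads per library ranged from 8627930 to 27288766. A set of 12 genes made of major satellite repeat took 5.24 to 28.2% of the reads under anti-B7-H3, 14.6 to 38.2% under anti-PD1 and 87.0 to 92.1% under IgG. A background measure was taken from 1453 olfactory and vomeronasal receptors, genes normally silent outside sensory tissue. Their summed level, in CPM (reads scaled to a common library size) over the reads outside the satellite genes, was 39.7 to 196 under anti-B7-H3, 76.8 to 275 under anti-PD1 and 752 to 4896.5 under IgG. Neither measure overlapped between the IgG libraries and the others, so treatment and library content cannot be told apart. Of 8 melanocyte lineage markers, Mlana, Tyr, Tyrp1, Dct, Pmel and Slc45a2 were at or below 1.84 CPM in every library, and Mitf was the highest at 4.24 to 9.66 CPM. Sox10 was at 3.50, 0.559 and 4.14 CPM under IgG and at most 0.361 CPM under the antibodies. CPM for all other genes is on a scale set by TMM, which centres each library on its typical gene. The 13 mitochondrial members held 37327 to 325701 reads per library, and the 28 nuclear members held 2282 to 68064, the lowest in IgG replicate 3.

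The mitochondrial genes lie close together, and 4 neighbouring pairs overlap. The start and end of these genes are shown because they decide which reads can be told apart. The gene for mt-Atp8, a small subunit of complex V, lies at chrM:7766-7969 (GRCm38, plus strand) and shares its last 43 of 204 bases, in capitals, with mt-Atp6.
mt-Atp8: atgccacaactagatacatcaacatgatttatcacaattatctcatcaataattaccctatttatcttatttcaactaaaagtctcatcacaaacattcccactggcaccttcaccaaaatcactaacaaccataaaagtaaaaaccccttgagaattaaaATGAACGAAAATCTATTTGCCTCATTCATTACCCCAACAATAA
The genes mt-Nd5 and mt-Nd6 meet end to end on opposite strands and share 14 bases, in capitals, which read as reverse complements in the last 60 bases of each gene (mt-Nd5 at chrM:13506-13565, plus strand; mt-Nd6 at chrM:13552-13611, minus strand).
mt-Nd5 end: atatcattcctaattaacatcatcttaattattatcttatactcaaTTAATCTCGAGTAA
mt-Nd6 end: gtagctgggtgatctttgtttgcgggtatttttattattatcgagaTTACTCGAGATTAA
Strand also shows in composition, so the first 90 bases of 3 genes are given with every G in capitals: mt-Nd6 (chrM:13981-14070, minus strand), mt-Nd2 (chrM:3914-4003, plus strand) and mt-Co1 (chrM:5328-5417, plus strand).
mt-Nd6 start: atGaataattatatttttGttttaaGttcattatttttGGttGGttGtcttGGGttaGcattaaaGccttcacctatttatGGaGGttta
mt-Nd2 start: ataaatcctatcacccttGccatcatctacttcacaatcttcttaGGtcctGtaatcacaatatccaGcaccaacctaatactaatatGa
mt-Co1 start: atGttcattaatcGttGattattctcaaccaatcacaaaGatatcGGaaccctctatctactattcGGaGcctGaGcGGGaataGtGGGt
Over its whole coding sequence mt-Nd6 was 28.1% G and 5.97% C, while G made up 5.88 to 16.1% of the other 12 genes. The sequences are GENCODE M21 transcripts. The sources used here do not state whether reads were counted by strand, so RNA of the 2 strands at mt-Nd6 cannot be told apart. Of the 13 mitochondrial members, only mt-Atp8 and mt-Atp6 shared runs of 31 bases with another listed gene, namely each other, at 7.47% of the runs of mt-Atp8 and 2.00% of those of mt-Atp6.

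Set against each other within each library, mitochondrial reads outnumbered nuclear ones everywhere, and 1 IgG library stood apart. This ratio does not depend on how libraries are scaled. The 13 mitochondrial members had 4.22, 6.42 and 3.48 reads per read of the 28 nuclear members under anti-B7-H3, 6.61, 4.18 and 5.82 under anti-PD1, and 5.34, 5.43 and 17.7 under IgG. The mean ratio was 4.71 ± 1.53 under anti-B7-H3, 5.54 ± 1.24 under anti-PD1 and 9.49 ± 7.12 under IgG (SD, n = 3 each). The groups overlapped, and the high IgG mean came from replicate 3. On the log2 scale the difference of means was -0.82 for anti-B7-H3 against IgG and -0.56 for anti-PD1 against IgG, and without IgG replicate 3 these were -0.24 under anti-B7-H3 and 0.02 under anti-PD1. IgG replicate 3 was the highest library for 13 of 13 mitochondrial members and the lowest for 21 of 28 nuclear members. The 6 erythroid markers summed to 20.7 to 56.1 CPM under anti-B7-H3, 22.5 to 41.8 CPM under anti-PD1, and 64.0, 102 and 356 CPM under IgG. The 8 keratinocyte markers summed to 0.639 to 2.56 CPM under anti-B7-H3, 1.53 to 5.17 CPM under anti-PD1, and 24.8, 29.3 and 72.7 CPM under IgG. Both sums were above all 6 antibody libraries in every IgG library and highest in IgG replicate 3, where the 10 macrophage markers were at 222 CPM, against 479 to 1302 CPM in the other 8 libraries. The 4 heart markers did likewise, at 4.04, 2.06 and 10.5 CPM under IgG and 1.05 to 1.48 CPM under the antibodies. The 8 melanocyte markers, though overlapping between groups, were also highest in IgG replicate 3, at 21.2 CPM. The 6 fibroblast markers were lowest there, at 2659 CPM, against 4228 to 8490 CPM elsewhere. The part of these cells, or of the background that the receptors measure, in the ratio and in the differences from IgG below was not tested. In bulk tumors, fewer cells of a type cannot be told apart from less RNA per cell.

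**Figure D1:**
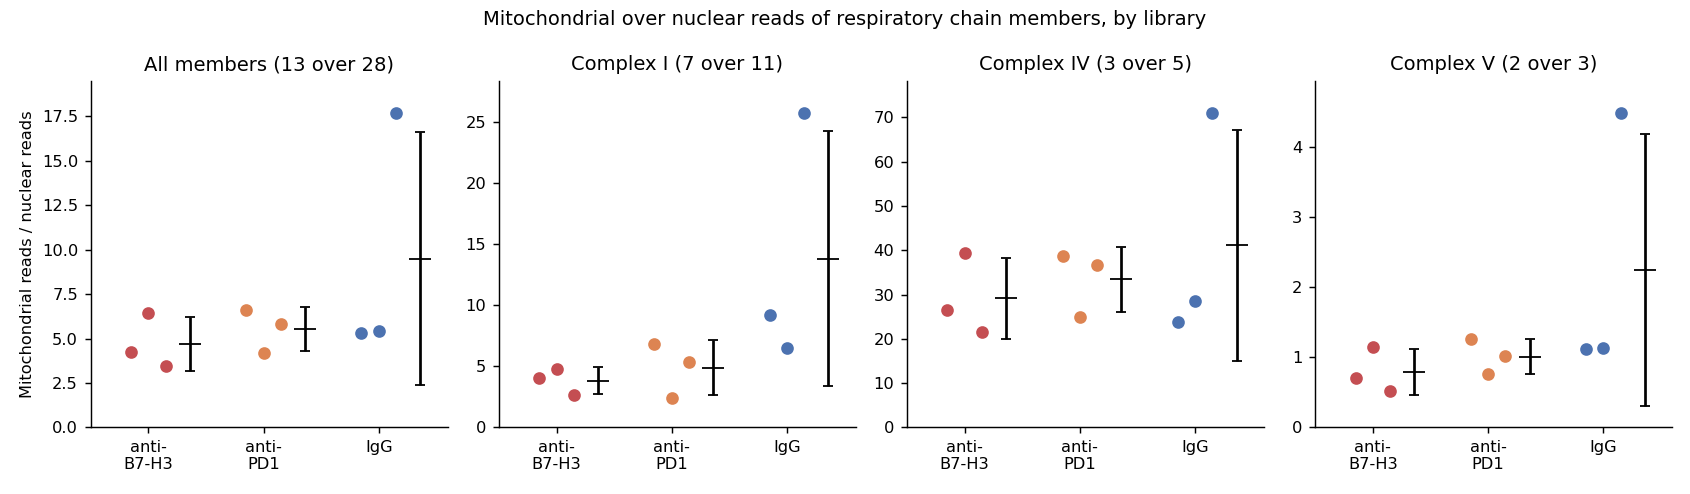
Reads of the mitochondrial members per read of the nuclear members (y axis, a ratio without unit, starting at 0), over all members and within complexes I, IV and V. Each point is 1 library, and the black bar beside each group is the mean with its SD over 3 libraries. The third IgG library lies above every other library, at 17.7 over all members and at 25.8 within complex I.

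Split by complex, the IgG libraries were separate from the anti-B7-H3 libraries in complex I alone. Within complex I the mitochondrial members had 4.05, 4.79 and 2.62 reads per nuclear read under anti-B7-H3, 6.87, 2.44 and 5.38 under anti-PD1, and 9.19, 6.48 and 25.8 under IgG. Every anti-B7-H3 library was below every IgG library, while anti-PD1 and IgG overlapped. In complexes III, IV and V all groups overlapped, at means of 2.40 ± 0.85, 29.1 ± 9.15 and 0.790 ± 0.329 under anti-B7-H3, 2.74 ± 1.05, 33.4 ± 7.35 and 1.01 ± 0.251 under anti-PD1, and 4.98 ± 3.19, 41.1 ± 26.0 and 2.25 ± 1.95 under IgG (SD, n = 3 each). Among the mitochondrial members themselves, complex I took 18.4, 14.0 and 14.0% of the reads under anti-B7-H3, 19.7, 11.8 and 18.1% under anti-PD1, and 33.4, 23.4 and 30.3% under IgG. Complex IV took 66.8, 71.6 and 73.6% under anti-B7-H3, 64.6, 75.3 and 67.3% under anti-PD1, and 48.5, 60.4 and 52.1% under IgG. For both shares the IgG libraries were separate from all 6 antibody libraries, with complex I on the high side in IgG and complex IV on the low side.

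No member passed the threshold in any comparison on the TMM scale. By edgeR's quasi-likelihood test with Benjamini-Hochberg adjustment over all 12965 genes tested, 0 of 41 members had an adjusted p under 0.05 for anti-B7-H3 against IgG, where 0.555% of all genes were called (0.00771% higher and 0.548% lower), and 0 of 41 for anti-PD1 against IgG, where 0.393% were called (0.00771% higher and 0.386% lower). In the test of all 3 groups together, which called 1.14% of genes, mt-Nd2 and mt-Nd6 came nearest, each at an adjusted p of 0.0666. DESeq2 called 6 members lower under anti-B7-H3, all mitochondrial, where it called 3.63% of all genes lower. Under anti-PD1 it called 4 mitochondrial members lower, against 4.9% of all genes, and 3 nuclear members higher, against 1.38%. Limma-voom called 1 member under anti-B7-H3, against 0.586% of all genes, and 0 under anti-PD1, against 0.617%. At an unadjusted p under 0.05, edgeR found 9 of 13 mitochondrial members lower under anti-B7-H3, against 6.93% of all genes, and 5 of 13 under anti-PD1, against 10.8%. For nuclear members it found 1 of 28 higher under anti-B7-H3, against 3.58% of all genes, and 7 of 28 under anti-PD1, against 7.67%. These comparisons share their IgG libraries.

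The mitochondrial values depended on the scale of the libraries and, in size and for some members in sign, on 1 library. On the TMM scale the log2 change was negative for 13 of 13 under anti-B7-H3 (median -1.07) and for 11 of 13 under anti-PD1 (median -0.72), where the median of all tested genes was 0.03 and 0.01. Scaling by library totals put the median of all tested genes at 3.37 under anti-B7-H3 and 3.15 under anti-PD1, and the mitochondrial medians of 2.48 and 2.59 lay below that shift. Deposited TPM, taken as log2(TPM + 1), put all tested genes at 3.04 and 2.67 and the mitochondrial members at 3.05 and 3.09, at or above the typical gene. The added 1 shrinks the changes of genes with low TPM more than those of abundant genes. Its part in the place of the mitochondrial members among all genes on this scale was not tested. Adding the receptor signal to the TMM fit as a covariate left all tested genes at 0.01 and -0.01 and put the mitochondrial members above them, at 0.34 under anti-B7-H3 and 0.32 under anti-PD1. The receptor signal did not overlap between IgG and antibody libraries, so this fit cannot separate it from treatment. Without IgG replicate 3 the mitochondrial medians were -0.39 under anti-B7-H3 and -0.01 under anti-PD1, with 10 of 13 and 8 of 13 members negative.

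**Figure D2:**
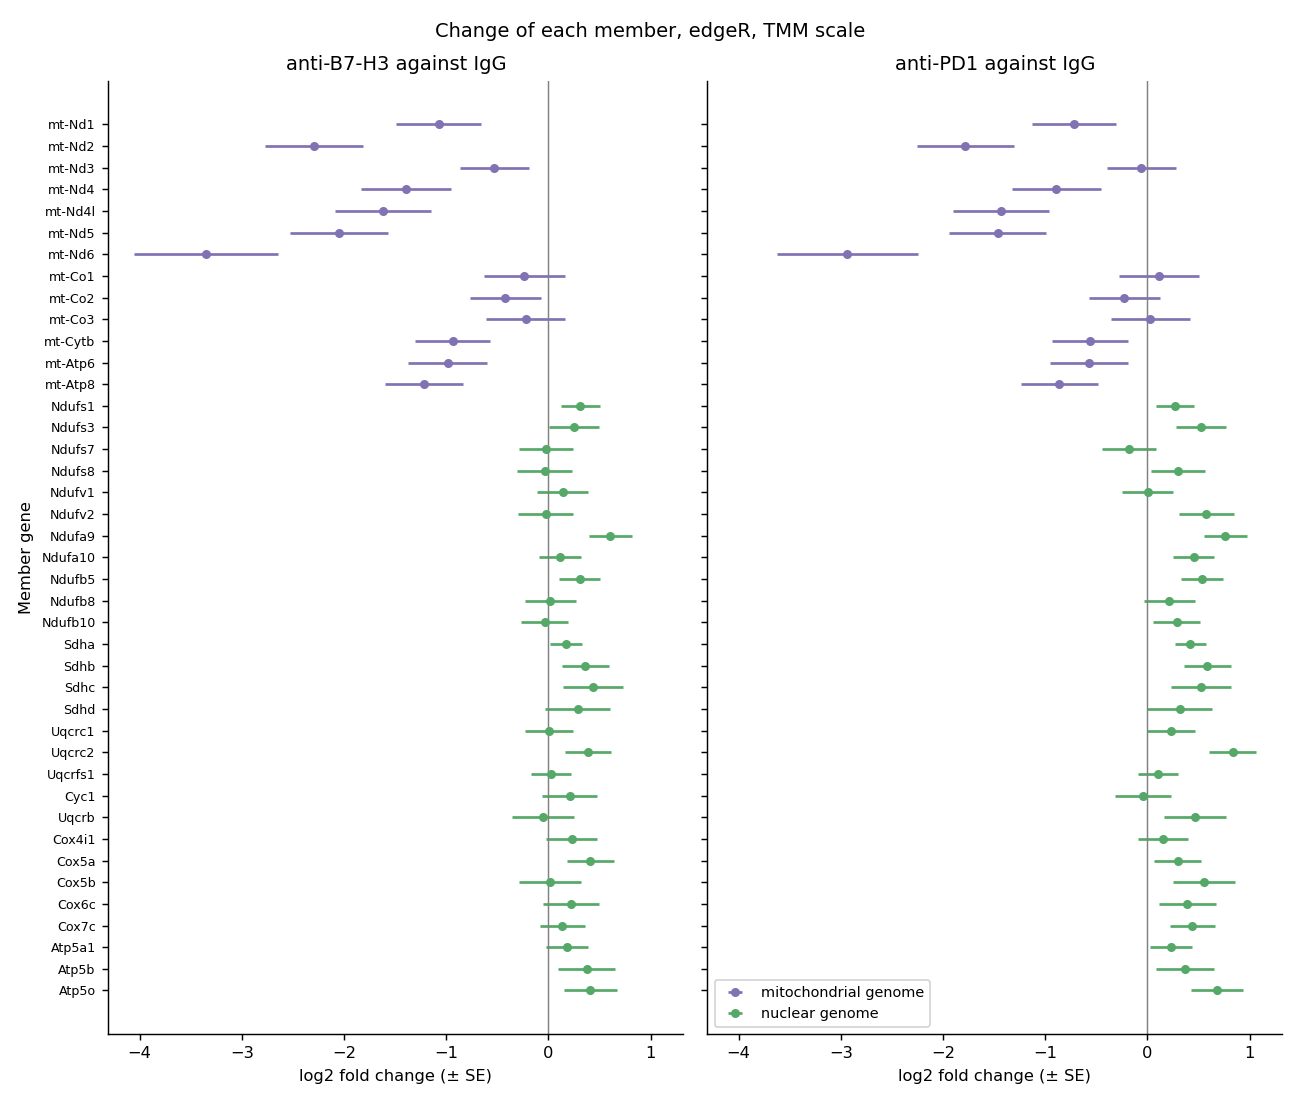
Log2 fold change of each member against IgG (x axis, with its SE as a bar) from edgeR on the TMM scale, under anti-B7-H3 on the left and anti-PD1 on the right. Mitochondrial members (purple) range from -3.35 to -0.22 on the left and from -2.94 to 0.11 on the right, and nuclear members (green) from -0.05 to 0.61 and from -0.18 to 0.84; 0 of 41 passed the adjusted threshold on either side.

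Mitochondrial complex I had the most negative values, led by mt-Nd6, mt-Nd2 and mt-Nd5, all parts of the membrane arm that carries protons. Their median log2 change over 7 genes was -1.62 under anti-B7-H3 and -1.43 under anti-PD1 on the TMM scale. The level of mt-Nd6 (chrM:13552-14070, minus strand) was 55.6, 23.6 and 16.7 CPM under anti-B7-H3, 66.6, 24.9 and 35.9 CPM under anti-PD1, and 232, 132 and 613 CPM under IgG. All 6 antibody libraries were below all 3 IgG libraries. Its log2 change was -3.35 ± 0.70 (SE) under anti-B7-H3 (edgeR adjusted p = 0.0853) and -2.94 ± 0.69 under anti-PD1 (adjusted p = 0.0939), and with library totals the values were 0.17 and 0.39, below the median of all tested genes on that scale. For mt-Nd2 (chrM:3914-4951, plus strand) the libraries had 95.3, 116 and 69.0 CPM under anti-B7-H3, 180, 87.4 and 132 CPM under anti-PD1, and 335, 211 and 831 CPM under IgG. Again no antibody library reached an IgG library. The log2 change of mt-Nd2 was -2.29 ± 0.48 under anti-B7-H3 (edgeR adjusted p = 0.0704) and -1.78 ± 0.47 under anti-PD1 (adjusted p = 0.107) on the TMM scale, and 1.29 and 1.56 with library totals, again below the median of all tested genes. For mt-Nd5 (chrM:11742-13565, plus strand) the levels were 224, 211 and 171 CPM under anti-B7-H3, 478, 134 and 298 CPM under anti-PD1, and 643, 485 and 1383 CPM under IgG. The groups of mt-Nd5 were separate too, narrowly so for anti-PD1, and its log2 change was -2.05 ± 0.48 under anti-B7-H3 (edgeR adjusted p = 0.0955) and -1.47 ± 0.47 under anti-PD1 (adjusted p = 0.151) on the TMM scale, and 1.47 and 1.79 with library totals, below the same medians. Without IgG replicate 3 the log2 changes on the TMM scale were -2.51 under anti-B7-H3 and -2.10 under anti-PD1 for mt-Nd6, -1.54 and -1.03 for mt-Nd2, and -1.48 and -0.89 for mt-Nd5.

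The other complex I genes of the mitochondrial genome were closer to IgG, mt-Nd4l only slightly so under anti-PD1. For mt-Nd4 the levels were 368, 309 and 230 CPM under anti-B7-H3, 600, 189 and 498 CPM under anti-PD1, and 607, 545 and 1237 CPM under IgG, so that anti-B7-H3 was separate from IgG and anti-PD1 was not. The level of mt-Nd1, which had the most reads per kb of the 7 genes, was 264, 433 and 252 CPM under anti-B7-H3, 501, 344 and 372 CPM under anti-PD1, and 423, 398 and 1181 CPM under IgG, with overlap in both comparisons. For mt-Nd3 the levels also overlapped, at 96.8, 138 and 101 CPM under anti-B7-H3, 138, 217 and 111 CPM under anti-PD1, and 114, 123 and 251 CPM under IgG. The remaining gene, mt-Nd4l, overlaps mt-Nd4 by 7 bases and had a log2 change of -1.62 ± 0.47 under anti-B7-H3 and -1.43 ± 0.47 under anti-PD1 on the TMM scale. It was separate from IgG in both comparisons, at up to 34.7 CPM under anti-B7-H3, up to 38.3 CPM under anti-PD1 and from 44.6 CPM under IgG. In all, 6 of 13 mitochondrial members were below IgG in every anti-B7-H3 library, where 8.53% of all genes were, and 5 of 13 in every anti-PD1 library, where 11.9% were.

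In complexes III and V the mitochondrial genes gave intermediate values on the TMM scale, and in complex IV values near 0. The level of mt-Cytb, the cytochrome b of complex III, was 414, 537 and 322 CPM under anti-B7-H3, 686, 420 and 550 CPM under anti-PD1, and 591, 517 and 1336 CPM under IgG, with overlap, and its log2 change was -0.94 ± 0.37 under anti-B7-H3 and -0.56 ± 0.37 under anti-PD1. For mt-Atp6, the proton channel subunit of complex V, the libraries had 423, 623 and 360 CPM under anti-B7-H3, 762, 565 and 545 CPM under anti-PD1, and 559, 671 and 1561 CPM under IgG. These overlapped as well, and the log2 change was -0.99 ± 0.38 under anti-B7-H3 and -0.57 ± 0.38 under anti-PD1. Its neighbour mt-Atp8 had 82.1, 146 and 69.8 CPM under anti-B7-H3, 146, 126 and 109 CPM under anti-PD1, and 166, 147 and 381 CPM under IgG. Here every antibody library was below every IgG library, narrowly so, and the log2 change was -1.22 ± 0.38 under anti-B7-H3 (edgeR adjusted p = 0.226) and -0.86 ± 0.38 under anti-PD1 (adjusted p = 0.255). The catalytic subunit of complex IV, mt-Co1, had 2317, 3653 and 2501 CPM under anti-B7-H3, 3912, 3600 and 3291 CPM under anti-PD1, and 1949, 2729 and 5306 CPM under IgG. The highest and the lowest mt-Co1 levels were both in IgG libraries, and its log2 change was -0.24 ± 0.40 under anti-B7-H3 and 0.11 ± 0.40 under anti-PD1. The 3 complex IV genes mt-Co1, mt-Co2 and mt-Co3 ranged from -0.42 to -0.22 under anti-B7-H3 and from -0.23 to 0.11 under anti-PD1 on the TMM scale.

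**Figure D3:**
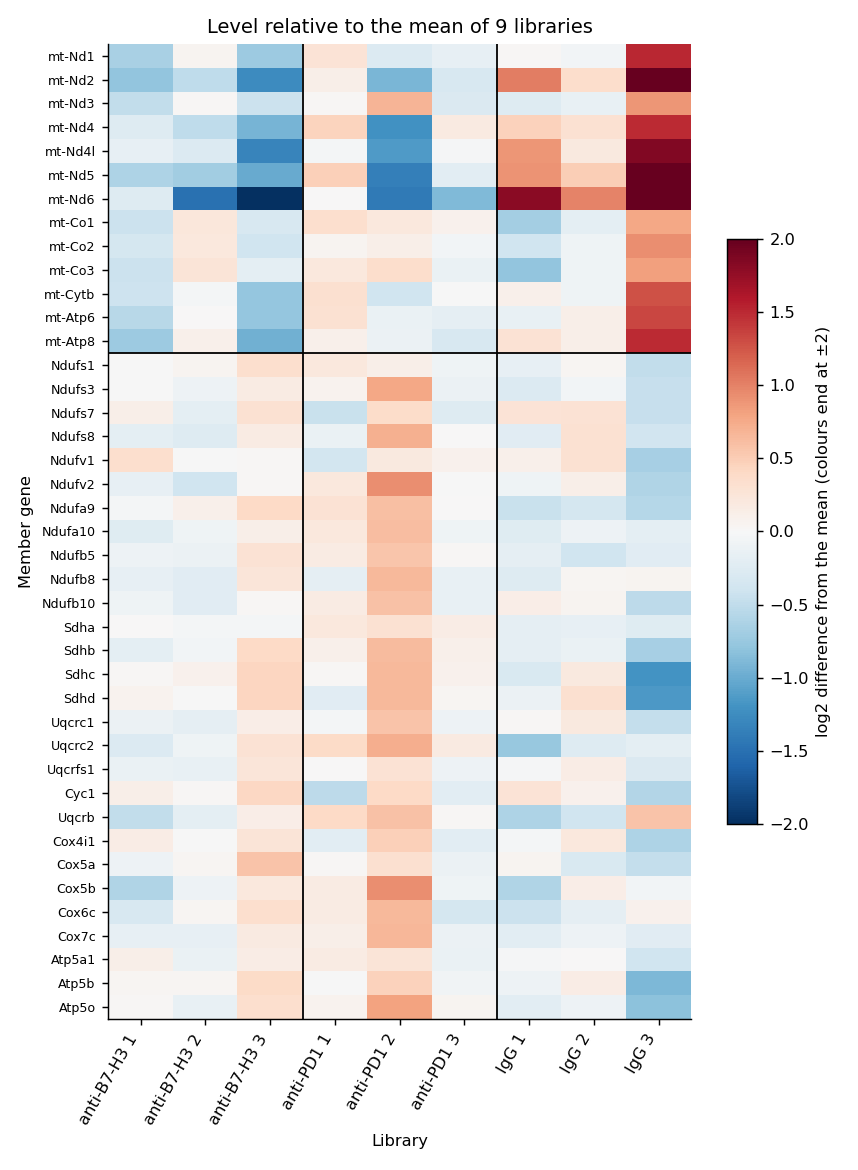
Level of each member in each library as the log2 difference of its CPM from its mean over 9 libraries (colour, red above and blue below the mean, ending at 2 in each direction). The upper 13 rows of genes are mitochondrial and the lower 28 nuclear. The third IgG library is the reddest column of the upper block, highest for 13 of 13 genes, and the second anti-PD1 library the reddest of the lower block, highest for 24 of 28.

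Setting each mitochondrial gene against mt-Co1 in the same library removes library scale, and this view was chosen after the values above had been seen. Per kb of coding length, mt-Co1 was the highest mitochondrial gene in all 9 libraries. Relative to it, 11 of the other 12 genes were lower in every anti-B7-H3 library than in any IgG library, where 4.64% of all tested genes were, and 10 of 12 were lower in every anti-PD1 library than in any IgG library, where 11.9% of all tested genes were. The exceptions were mt-Co3 in both comparisons and mt-Nd3 under anti-PD1. On this scale 0 of 28 nuclear members were lower without overlap in either comparison. Per kb, mt-Nd2 stood at 4.99 ± 1.03% of mt-Co1 under anti-B7-H3, 5.48 ± 1.67% under anti-PD1 and 20.1 ± 7.56% under IgG, and mt-Nd5 at 6.29 ± 1.72% under anti-B7-H3, 7.05 ± 3.64% under anti-PD1 and 21.7 ± 6.46% under IgG (SD, n = 3 each). Next to these, mt-Co3 stood at 90.7 ± 4.27% under anti-B7-H3, 84.4 ± 11.1% under anti-PD1 and 88.7 ± 6.81% under IgG. The span of the mitochondrial genome, as the highest over the lowest of the 13 genes per kb, was 16.3 to 52.1 under anti-B7-H3, 19.8 to 48.6 under anti-PD1 and 5.21 to 11.8 under IgG. Among the 28 nuclear members the same span was 13.3 to 20.6 over all 9 libraries, so the flatter profile of IgG libraries was not seen in them.

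**Figure D4:**
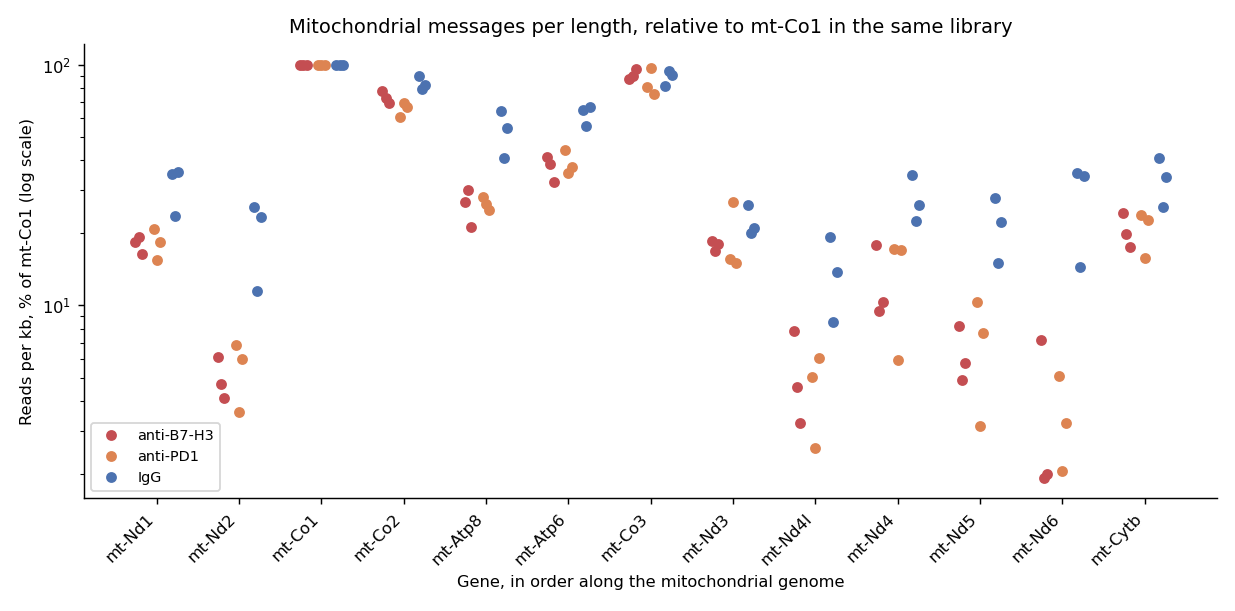
Reads per kb of each mitochondrial gene as a percentage of mt-Co1 in the same library (log scale), in the order of the genes along the mitochondrial genome. Each point is 1 library, coloured by group. The IgG points lie above the others at most genes, by the widest margin on this scale at mt-Nd6, and mix with them at mt-Co3 and mt-Nd3.

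The gene on the opposite strand, mt-Nd6, had the most negative log2 change of the 13 in both comparisons with IgG. Its level per kb was 7.15, 1.92 and 1.99% of mt-Co1 under anti-B7-H3, 5.07, 2.06 and 3.25% under anti-PD1, and 35.5, 14.4 and 34.4% under IgG. The satellite share of the same libraries was 28.2, 5.24 and 6.41% under anti-B7-H3, 38.2, 19.8 and 14.6% under anti-PD1, and 92.1, 87.0 and 91.0% under IgG. In each group the library with the highest mt-Nd6 percentage also had the highest satellite share. The receptor signal in CPM was 196, 40.98 and 39.7 under anti-B7-H3, 275, 76.8 and 110 under anti-PD1, and 2212, 752 and 4896.5 under IgG. Among IgG libraries, replicate 2 had the lowest value of all 3 measures. What these measures contribute to the mitochondrial profile was not tested, beyond the fit with the receptor signal as a covariate, in which the log2 change of mt-Nd6 was 0.34 under anti-B7-H3 and 0.10 under anti-PD1. Subtracting the receptor level per kb from every member left the overall ratio of mitochondrial to nuclear reads at a log2 difference of -0.84 for anti-B7-H3 against IgG and -0.58 for anti-PD1 against IgG.

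**Figure D5:**
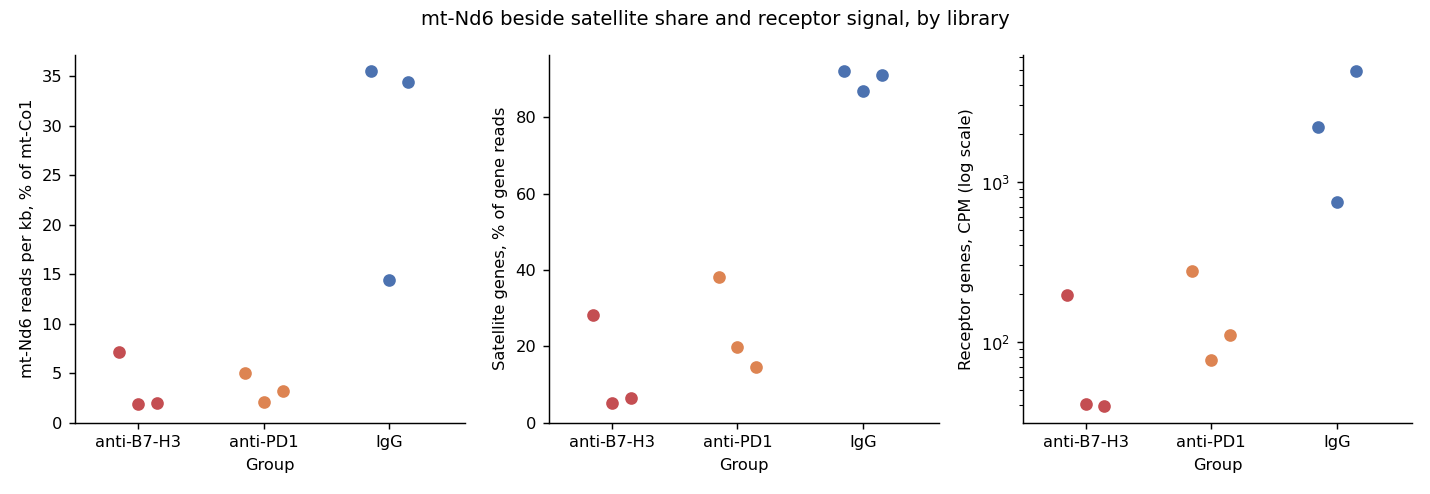
Level of mt-Nd6 per kb as a percentage of mt-Co1 (left), share of reads in satellite genes (middle) and receptor signal in CPM outside the satellite genes (right, log scale), each point being 1 library. In all 3 panels the IgG libraries lie above the 6 antibody libraries, from 14.4% on the left, 87.0% in the middle and 752 on the right.

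The nuclear members showed small positive values against IgG on the TMM scale. The log2 change was positive for 23 of 28 under anti-B7-H3 (median 0.20) and for 26 of 28 under anti-PD1 (median 0.38). The medians were -0.44 and -0.10 once the receptor signal entered the fit as a covariate, but that fit cannot separate the receptor signal from treatment. By complex the median was 0.11 in complex I, 0.32 in II, 0.03 in III, 0.22 in IV and 0.38 in V under anti-B7-H3, and 0.30, 0.47, 0.23, 0.39 and 0.37 under anti-PD1. In 3 of 28 every anti-B7-H3 library was above every IgG library, against 7.72% of all genes, and in 7 of 28 every anti-PD1 library was, against 11.1%. Without anti-PD1 replicate 2 the nuclear median under anti-PD1 was 0.19.

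In complex I, Ndufa9, a subunit of the arm that takes electrons from NADH, had 17.2, 18.9 and 23.5 CPM under anti-B7-H3, 21.7, 26.9 and 17.7 CPM under anti-PD1, and 13.04, 13.9 and 11.97 CPM under IgG. All 6 antibody libraries were above all IgG libraries, and the log2 change was 0.61 ± 0.21 under anti-B7-H3 (edgeR adjusted p = 0.278) and 0.76 ± 0.21 under anti-PD1 (adjusted p = 0.112). Ndufv2, which carries an iron-sulfur cluster near the NADH site, had 26.2, 22.4 and 30.1 CPM under anti-B7-H3, 33.9, 56.2 and 29.2 CPM under anti-PD1, and 27.6, 32.0 and 19.3 CPM under IgG. The groups overlapped, and the highest Ndufv2 value was that of anti-PD1 replicate 2. Ndufb8, an accessory subunit of the membrane arm with the most reads per kb among the nuclear members of complex I, had 32.2, 30.9 and 43.0 CPM under anti-B7-H3, 32.0, 57.1 and 32.6 CPM under anti-PD1, and 30.2, 37.2 and 37.7 CPM under IgG, again with overlap. Of the other 8 nuclear members of complex I, Ndufb5 was higher in every library of either antibody than in IgG, and Ndufs7 had the most negative change under anti-PD1, at -0.18.

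Complex II has no mitochondrial subunit, and 4 of 4 members were positive in both comparisons on the TMM scale. Its flavoprotein Sdha, the most abundant of the 4 per kb, had 91.1, 87.9 and 87.7 CPM under anti-B7-H3, 105, 112 and 99.8 CPM under anti-PD1, and 79.6, 80.3 and 76.4 CPM under IgG. The 3 groups did not overlap at all for Sdha, under anti-PD1 highest and IgG lowest. The log2 change was 0.17 ± 0.15 under anti-B7-H3 (edgeR adjusted p = 0.748) and 0.42 ± 0.15 under anti-PD1 (adjusted p = 0.187). The membrane anchors Sdhc and Sdhd were lowest in IgG replicate 3, at 10.8 and 11.5 CPM per kb, against 20.2 to 39.0 and 21.9 to 39.9 CPM per kb in the other 8 libraries.

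In complex III, Uqcrc2, a core protein on the matrix side, had 30.4, 34.9 and 45.4 CPM under anti-B7-H3, 48.3, 61.2 and 41.7 CPM under anti-PD1, and 21.8, 31.1 and 32.2 CPM under IgG. The anti-PD1 libraries were above all IgG libraries, while anti-B7-H3 overlapped IgG, and the log2 change was 0.39 ± 0.23 under anti-B7-H3 (edgeR adjusted p = 0.596) and 0.84 ± 0.23 under anti-PD1 (adjusted p = 0.1102). The small subunit Uqcrb, the most abundant of the nuclear members of complex III per kb, had 15.5, 18.9 and 23.9 CPM under anti-B7-H3, 28.7, 32.8 and 22.1 CPM under anti-PD1, and 14.2, 16.4 and 32.2 CPM under IgG. It was 1 of 7 nuclear members that were not lowest in IgG replicate 3, and there it was high.

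In complex IV, Cox5a, a subunit on the matrix side, had 21.9, 24.2 and 35.0 CPM under anti-B7-H3, 23.9, 29.4 and 21.7 CPM under anti-PD1, and 24.5, 19.1 and 17.0 CPM under IgG. The groups overlapped, and the log2 change was 0.41 ± 0.23 under anti-B7-H3 (edgeR adjusted p = 0.575). Cox7c, a small membrane subunit and the most abundant of the nuclear members of complex IV per kb, had 23.5, 23.7 and 29.8 CPM under anti-B7-H3, 28.7, 42.0 and 24.4 CPM under anti-PD1, and 22.8, 24.6 and 22.5 CPM under IgG, which also overlapped. In complex V, Atp5b, the catalytic beta subunit and the most abundant nuclear member of all per kb, had 371, 371 and 471 CPM under anti-B7-H3, 360.0, 500.0 and 346 CPM under anti-PD1, and 338, 401 and 195 CPM under IgG. The low IgG value was again that of replicate 3, and the log2 change of Atp5b was 0.37 ± 0.28 under anti-B7-H3 and 0.37 ± 0.28 under anti-PD1. Reads of some nuclear members may be shared with other listed genes. Of the 28, 11 share runs of 31 bases with another gene over their whole annotated transcripts, most of all Cox6c (35.8% of its runs), Cox5b (32.6%), Atp5o (26.4%) and Uqcrc2 (25.6%), so their values are less certain. Over all libraries, the gene sharing most runs with Cox6c held 14396 reads, against 3571 for Cox6c. The closest genes of Cox5b, Atp5o and Uqcrc2 held 9, 6 and 8 reads, against 6556, 8014 and 7220 for these members.

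The promoters of Sdha and Ndufa9 are shown because these members, with Ndufb5, were above every IgG library under both antibodies. Promoter sequence, from 250 bases before to 50 bases after the start of the gene, was matched by symbol for 20 of the 28 nuclear members (RefSeq, GRCm38.p6), and capitals mark motif matches on either strand. The window of Sdha is chr13:74350191-74350490 (minus strand) and has 3 matches to NRF1.
Sdha promoter: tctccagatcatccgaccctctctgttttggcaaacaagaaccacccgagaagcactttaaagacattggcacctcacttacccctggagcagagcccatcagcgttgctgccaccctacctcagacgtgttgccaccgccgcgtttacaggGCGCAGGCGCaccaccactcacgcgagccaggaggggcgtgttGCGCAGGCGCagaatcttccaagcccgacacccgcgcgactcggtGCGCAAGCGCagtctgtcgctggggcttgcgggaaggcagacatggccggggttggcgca
The window of Ndufa9 is chr6:126849095-126849394 (minus strand) and has a match to the YY1 core after its start.
Ndufa9 promoter: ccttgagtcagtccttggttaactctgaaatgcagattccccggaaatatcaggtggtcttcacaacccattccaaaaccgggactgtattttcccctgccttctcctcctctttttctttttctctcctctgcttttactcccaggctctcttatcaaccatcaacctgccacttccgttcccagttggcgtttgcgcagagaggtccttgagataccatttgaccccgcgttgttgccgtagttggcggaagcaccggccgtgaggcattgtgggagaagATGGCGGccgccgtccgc
The letters searched were GCGCA, any base and GCGC for NRF1, CCGGAAG for ETS factors and ATGGCGG for the core of the YY1 motif. Of the 20 promoters, 4 (20.0%) held the NRF1 motif, against 4.60% of 32851 promoters, 4 (20.0%) held the ETS motif, against 8.86%, and 4 (20.0%) held the YY1 core, against 4.05%. Any of the 3 motifs was found in 11 of 20, against 15.5% of all promoters. A match describes the letters only, and these counts carry no test.

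Between the antibodies, 0 of 41 members were called by edgeR, where 0% of all genes were. DESeq2, which called 0.185% of all genes, and limma-voom, which called 0%, called 0 members as well, and at an unadjusted p under 0.05 edgeR found 0 mitochondrial members and 1 nuclear member, Ndufv2, lower under anti-B7-H3, against 2.56% of all genes. Mitochondrial members had a median log2 change of -0.38 for anti-B7-H3 against anti-PD1 on the TMM scale, from -0.58 for mt-Nd5 to -0.19 for mt-Nd4l, and nuclear members a median of -0.21, with 21 of 28 negative. Ndufv2 was at -0.60 ± 0.26 (edgeR adjusted p = 0.749), Uqcrb at -0.52 ± 0.29 (adjusted p = 0.767) and Uqcrc2 at -0.45 ± 0.22 (adjusted p = 0.754). Sdha was the 1 member of 41 whose libraries did not overlap between the antibodies, where 7.89% of all genes were lower without overlap. Without anti-PD1 replicate 2 the nuclear median was 0.03 and 17 of 28 were positive.

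Anti-PD1 replicate 2 and anti-B7-H3 replicate 3 together were the highest libraries for 27 of 28 nuclear members. These libraries also had the highest sums of 14 skeletal muscle markers, at 1949 CPM in anti-B7-H3 replicate 3 and 1283 CPM in anti-PD1 replicate 2, against 1.30 and 353 CPM in the other anti-B7-H3 libraries, 85.6 and 572 CPM in the other anti-PD1 libraries and 39.7 to 70.0 CPM under IgG. Of 3 muscle isoforms of complex IV listed, Cox6a2 was at 3.81 CPM in anti-B7-H3 replicate 3 and 3.14 CPM in anti-PD1 replicate 2. In the other 7 libraries Cox6a2 was at most 0.563 CPM. The other isoforms were low everywhere. Cox7a1 was highest elsewhere, at 0.460 CPM in IgG replicate 3, against 0.411 and 0.302 CPM in the libraries just named. Cox8b was highest in those libraries, at 0.514 and 0.345 CPM, against at most 0.223 CPM in the other 7. The 10 macrophage markers were highest in the same libraries too, at 1182 CPM in anti-B7-H3 replicate 3 and 1302 CPM in anti-PD1 replicate 2, against 479 to 710 CPM in the other antibody libraries and 222 to 605 CPM under IgG. The part of these cells in the nuclear values was not tested.

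In 6 further lists of genes for mitochondrial energy metabolism, edgeR called 0 genes in any comparison. The lists held 47, 43, 27, 78, 16 and 9 tested genes. Limma-voom called 0 as well. DESeq2 called 2 of their genes for anti-B7-H3 against IgG (Cox11 and Ppargc1a, both lower), where it called 3.63% of all genes lower. For anti-PD1 against IgG it called 8 (Atp5c1, Atp5g3, Cox7b, Mrps33 and Fh1 higher, Cox11, Sco2 and Ppargc1b lower), where it called 1.38% of all genes higher and 4.9% lower. Values below are on the TMM scale. Of 48 further nuclear subunits, 47 were tested, and 39 were positive under anti-B7-H3 (median log2 change 0.23) and 43 under anti-PD1 (median 0.43). At an unadjusted p under 0.05, edgeR found 1 of them higher under anti-B7-H3, against 3.58% of all genes, and 11 under anti-PD1, against 7.67%. The smallest p in this list was that of Atp5c1, the gamma subunit of complex V, with 99.7 ± 32.3 CPM under anti-PD1 and 54.3 ± 2.37 CPM under IgG (log2 change 0.88 ± 0.23, edgeR adjusted p = 0.0948). The 16 citrate cycle genes were positive in 16 of 16 in both comparisons, at medians of 0.22 under anti-B7-H3 and 0.26 under anti-PD1, and 78 mitochondrial ribosomal protein genes had medians of 0.11 and 0.30. At an unadjusted p under 0.05, the citrate cycle had 0 genes higher under anti-B7-H3 and 4 under anti-PD1, and the ribosomal list 3 and 10, against the same shares of all genes. Among the ribosomal genes, Mrps33 had 9.89 ± 1.76 CPM under anti-PD1 and 4.38 ± 0.46 CPM under IgG (log2 change 1.15 ± 0.25, edgeR adjusted p = 0.0680). The 27 tested genes for the copying, transcription and processing of mitochondrial nucleic acids had medians of 0.19 under anti-B7-H3 and 0.38 under anti-PD1, and 43 assembly factors had medians of 0.06 and 0.19. At an unadjusted p under 0.05, edgeR found 1 of the 27 higher and 1 lower under anti-B7-H3, and 7 higher and 1 lower under anti-PD1. Of the assembly factors it found 0 higher and 3 lower under anti-B7-H3, and 2 higher and 2 lower under anti-PD1. Of all genes, 3.58% were higher and 6.93% lower under anti-B7-H3, and 7.67% and 10.8% under anti-PD1. The 3 assembly factors with the smallest p for anti-B7-H3 against IgG, Cox11, Atpaf1 and Cox20, were all negative. Cox11, a copper chaperone of complex IV, had 2.54 ± 0.03 CPM under anti-B7-H3 and 6.06 ± 2.78 CPM under IgG (log2 change -1.17 ± 0.32, edgeR adjusted p = 0.145). The 9 tested regulators of mitochondrial biogenesis had 4 positive values in each comparison with IgG, at medians of -0.04 under anti-B7-H3 and -0.28 under anti-PD1. By the same unadjusted edgeR threshold, 0 were higher and 2 lower under anti-B7-H3, and 2 higher and 2 lower under anti-PD1, against the same shares of all genes. The coactivator Ppargc1a was low everywhere, at 0.28 ± 0.11 CPM under anti-B7-H3, 0.40 ± 0.22 CPM under anti-PD1 and 1.91 ± 1.33 CPM under IgG. It overlapped IgG under anti-PD1 and had a log2 change of -2.53 ± 0.76 under anti-B7-H3 (edgeR adjusted p = 0.191) and -2.15 ± 0.77 under anti-PD1 (adjusted p = 0.1798). Gabpa, the DNA-binding subunit of an ETS factor, was above every IgG library under both antibodies, at 0.30 ± 0.16 under anti-B7-H3 (edgeR adjusted p = 0.560) and 0.47 ± 0.16 under anti-PD1 (adjusted p = 0.167). The related coactivator Ppargc1b had 1.66 ± 0.33 CPM under anti-B7-H3, 1.01 ± 0.02 CPM under anti-PD1 and 3.64 ± 1.25 CPM under IgG. Its log2 change was -1.08 ± 0.39 under anti-B7-H3 (edgeR adjusted p = 0.306) and -1.79 ± 0.40 under anti-PD1 (adjusted p = 0.0700).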

How the data were processed

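Bulk RNA-seq of 9 tumor libraries was analysed. Per the file headers, the authors deposited an estimated count of reads for each transcript, not normalized, and TPM, scaled by effective transcript length. The sources used here name neither the quantifier nor its use of strand. The submitters' processing notes name FastQC 0.11.8 and GRCm38. Of 58083 transcripts, 57409 matched GENCODE M21 by identifier, and the other 674 held 0.105 to 0.369% of reads. The listed length equalled the coding length for 92.2% of 57298 transcripts. Counts were summed per gene and rounded. Genes passing filterByExpr were fitted in R 4.3.3 with edgeR 4.0.16 (TMM, robust quasi-likelihood, group as the only term, all 9 libraries), and p-values were adjusted over all 12965 genes; 8623 further genes with reads were not tested. DESeq2 1.42.0, limma 3.58.1, other scales and filters, and each library left out were alternatives. Satellite genes shared over 30% of their 15-base words with known major satellite genes. The test was tried on simulated data. A second Atp5o entry, with 6 reads, was left out.

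The 41 members and the other gene lists were chosen with earlier results of these data known. Members printed in every library are those with the 3 smallest p-values per comparison and genome, and the most abundant per kb in each complex and genome; up to 3 genes with the smallest p were open to naming from each list. The promoter motifs were set after seeing the data. Which of these members were named, and mt-Atp8 and mt-Nd4l, Ndufb5, Ndufs7, Sdhc and Sdhd, which fall outside that rule, was settled after their values were seen. Cycs, Prorp and Fastkd4 were not matched by symbol.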

Additional observations from a re-analysis of the deposited data

How the results depend on the processing

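The number of members called was 0 for anti-B7-H3 against IgG by edgeR on the TMM scale, 6 with DESeq2, 1 with limma-voom, 2 with totals outside the satellite genes, 3 with no filter on low counts and 40 with either library totals or TPM. For anti-PD1 against IgG it was 0, and 7 with DESeq2, 2 with no filter, and 40 with library totals or TPM. Leaving out 1 library gave 0 to 4 calls under anti-B7-H3 (4 without IgG replicate 2) and 0 to 2 under anti-PD1 (2 without IgG replicate 2). Calls over all genes rose in these settings too. Without IgG replicate 2, 9 of 13238 genes were called higher and 432 lower under anti-B7-H3, and 20 and 412 under anti-PD1. With no filter, 131 of 21588 were called higher and 966 lower under anti-B7-H3, and 270 and 461 under anti-PD1. Totals outside the satellite genes called 3 higher and 115 lower under anti-B7-H3. The mitochondrial median of -1.07 under anti-B7-H3 was 2.48 with library totals, 0.34 with the receptor covariate, 3.05 with TPM and -1.36 to -0.39 with 1 library left out; that of -0.72 under anti-PD1 was 2.59, 0.32, 3.09 and -0.97 to -0.012. The nuclear median of 0.20 under anti-B7-H3 was 3.52, -0.44 and 3.91 under the same 3 settings, that of 0.38 under anti-PD1 was 3.52, -0.10 and 3.68, and that of -0.21 between the antibodies was 0.145 with TPM. The ratio of mitochondrial to nuclear reads, at log2 differences of -0.82 and -0.56, was -1.64 and -1.37 within complex I alone, and without single libraries it ranged from -1.11 to -0.24 and from -0.85 to 0.02.

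Library totals and TPM put the median of all tested genes at 3.37 and 3.04 under anti-B7-H3 and at 3.15 and 2.67 under anti-PD1, so a positive sign there is built into the scale. The genes listed next stayed below those medians, whereas the TPM median of all mitochondrial members did not (3.05 under anti-B7-H3 and 3.09 under anti-PD1). Values with library totals, the receptor covariate and TPM, in that order, were as follows: under anti-B7-H3 mt-Nd2 (1.29, 0.08, 1.89), mt-Nd6 (0.17, 0.34, 0.72) and mt-Nd5 (1.47, 0.34, 2.09); under anti-PD1 mt-Nd6 (0.39, 0.10, 0.84), mt-Nd2 (1.56, 0.06, 2.03) and mt-Nd5 (1.79, 0.33, 2.16). With the covariate, under which the median of all tested genes stayed near 0, Cox5a (-0.16) and Uqcrc2 (-0.11) under anti-B7-H3, and mt-Nd5 between the antibodies (0.01), changed sign as well. The receptor signal did not overlap between IgG and antibody libraries, so the covariate fit cannot separate it from treatment. The cause of the sign changes under the covariate was not tested. Over all genes, calls were 72 under anti-B7-H3 and 51 under anti-PD1, of which 71 and 50 were lower; DESeq2 called 26 higher and 470 lower under anti-B7-H3 and 179 higher and 635 lower under anti-PD1, and library totals called 12456 and 12287 higher.

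Deviations from group means correlated at -0.333 to 0.203 between same-numbered libraries and at -0.443 to 0.54 between differently numbered ones. With 3 libraries a group, these correlations cannot show whether the numbers mark a pairing or a batch. With the replicate block 0 members were called, the mitochondrial medians were -0.97 under anti-B7-H3 and -0.61 under anti-PD1, and all-gene calls lower were 97 and 124.

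Depth limited the IgG libraries most: the 28 nuclear members held 2282 to 13632 reads there, against 21094 to 68064 under either antibody.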
